A study of Mus musculus with 6 samples.

Results

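The genes described here are 10 components of the bone morphogenetic protein (BMP) pathway: the ligands Bmp2, Bmp4 and Bmp6, the receptors Bmpr1a and Bmpr2, the secreted antagonist Grem1, and the target genes Id1, Id2, Id3 and Smad6. They were picked by gene symbol for their place in the pathway, and all 10 were present among the 16982 genes of the count table and passed the filter on low counts that left 13386 genes for testing. RNA-seq was performed on 3 WT and 3 Rnf20 knockout (KO) samples of reprogrammable cells on a C57BL/6 background, all harvested at day 3 of OSKM reprogramming. The cells were mouse embryonic fibroblasts (MEF) infected with retroviruses for the OSKM factors (OCT4, SOX2, KLF4, C-MYC), and the knockout cells came from Rnf20 Flox/Flox mice with a ubiquitous Cre that tamoxifen activates (Tamoxifen-cre). Rnf20 encodes an E3 ligase that ubiquitinates histone H2B. The knockout was induced in culture with 4-OH tamoxifen, while the labels list every sample as untreated, and whether the WT cells carried the same alleles or received the drug was not stated. The infected cells were replated on mitotically inactivated MEF feeders for reprogramming, and whether feeder RNA was harvested with them was not stated. Nor was it stated that the 3 samples of a genotype came from separate embryos or cultures, so the p-values measure only the spread between these samples, which may in part be technical.

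BMP ligands are secreted dimers that bring together type I receptors such as BMPR1A and type II receptors such as BMPR2, and the active receptors phosphorylate SMAD proteins that enter the nucleus with SMAD4 and switch on target genes. The Id genes, which encode dominant-negative partners of basic helix-loop-helix factors, and Smad6, which encodes an inhibitory SMAD, are classical targets, and antagonists such as Gremlin 1 (Grem1) bind the ligands outside the cell. BMP signalling is known to favour the mesenchymal-to-epithelial transition (MET) that fibroblasts pass through early in OSKM reprogramming.

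The libraries held between 20545442 and 21746898 counts. Rnf20 itself was measured at 106 to 107 CPM (counts scaled to library size with TMM factors) in WT and at 16.4 to 18.7 CPM in KO, so every library matched its genotype label. KO replicate 3 stood apart from the rest: the mean chi-square per gene between it and the other KO libraries was 92.4 and 101, against 8.57 between KO replicates 1 and 2 and 6.04 to 8.92 between WT libraries. The Y-linked gene Ddx3y had 0 counts in KO replicates 1 and 3 and between 1990 and 2686 counts in the other libraries, so the 3 KO samples were not all repeats of the same culture. Every WT library had Ddx3y counts, so this difference lies in part between the genotypes. Bmp15 and Chrdl1, described below, are on the X chromosome. All 8 fibroblast markers were detected, with summed levels of 24222 to 26207 CPM in WT and of 13971 to 29430 CPM in KO, lowest in KO replicate 3. Of these markers Pdgfra (adjusted p = 0.0185) and Thy1 (adjusted p = 0.00251 from edgeR) fell and none rose, beside 16.6% and 16.4% of all genes. The libraries of the genotypes overlapped for 5 of the 8, and for 3 all KO libraries were lower, beside 28.2% of all genes. Without any 1 WT library Pdgfra lost its call (adjusted p = 0.0590 to 0.0677 from edgeR). The 8 macrophage markers summed to 47.5 to 98.2 CPM in WT and to 48.7 to 235 CPM in KO, highest in KO replicate 3, and none passed the test. The 8 endothelial markers summed to 63.3 to 69.3 CPM in WT and 34.1 to 73.0 CPM in KO, with Pecam1, Cdh5, Tie1, Emcn and Esam under the filter. This sum was mostly that of Tek (46.6 to 58.1 CPM in WT and 30.8 to 64.5 CPM in KO) and Erg (10.3 to 14.5 CPM and 1.52 to 6.36 CPM). Muscle markers summed to at most 1.23 CPM. The part of these differences in the results below was not tested, and in such bulk samples fewer cells of a type and less RNA per cell cannot be told apart.

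In Rnf20 knockout cells the antagonist Grem1 was upregulated, the ligands diverged, with Bmp2 downregulated and Bmp4 and Bmp6 upregulated, and the targets Id2 and Id3 were downregulated. The genotypes were compared with edgeR's quasi-likelihood test over all genes, with Benjamini-Hochberg adjustment, and "rose" and "fell" are used at an adjusted p under 0.05. Of the 10 genes 3 fell and 3 rose by this rule, where 16.6% of all genes tested fell and 16.4% rose (33.0% in all). Without KO replicate 3, 4 of the 10 fell and 4 rose, and without any 1 of the other libraries 1 to 4 fell and 0 to 1 rose. By the thresholds of the study's methods (adjusted p below 0.01, a log2 fold change beyond 1 in either direction, and FPKM above 1 on average in WT or in KO) 1 gene, Bmp2, was called lower, against 2.08% of all genes, and 1 gene, Grem1, was called higher, against 1.50% (3.59% in all). The libraries of the genotypes did not overlap for 4 genes that were lower in KO and for 4 that were higher, beside 28.2% and 26.6% of all genes (54.8% in all). The median log2 fold change of the 10 genes was 0.063, and that of all genes tested was -0.00032. By each rule the share of the 10 genes was above that of all genes, which was not tested because the genes were chosen with earlier results known, and the median lay near 0 because they moved in both directions.

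**Figure D1:**
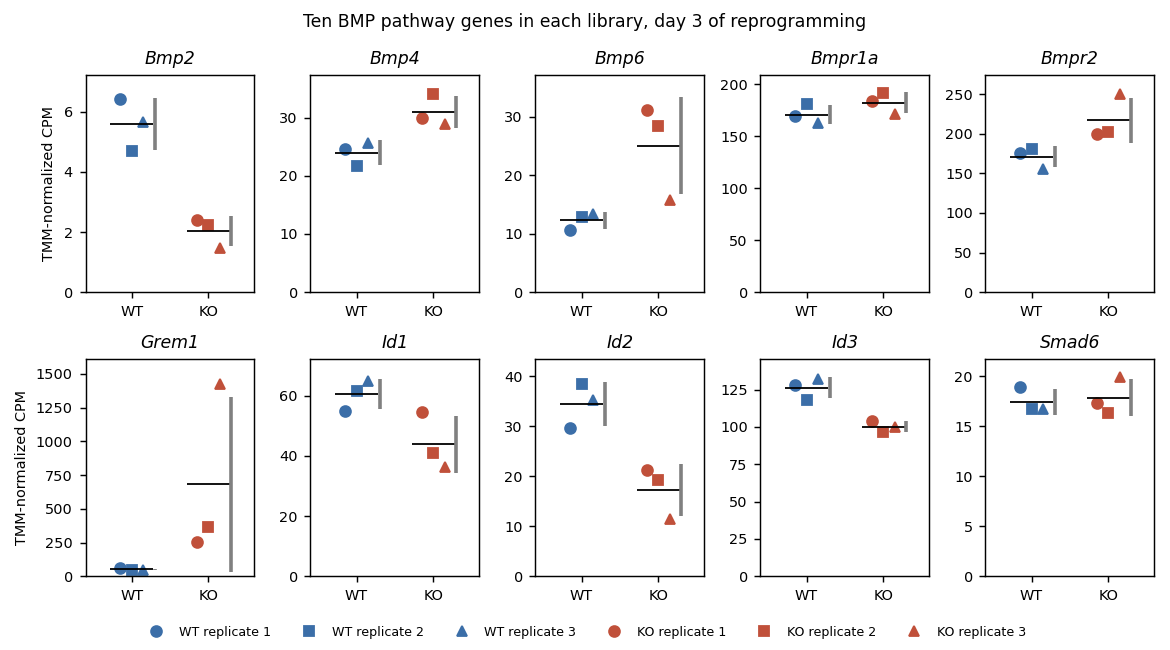
Level of each of the 10 BMP pathway genes in each library, in TMM-normalized CPM on a linear axis from 0 that is scaled separately for each gene. Points are libraries, marked by replicate, black lines are genotype means and grey bars are ± 1 SD (n = 3). The KO libraries of Grem1 (257, 362 and 1424 CPM) sit far above those of WT, and the KO libraries of Bmp2 and Id2 sit below. For Bmpr1a and Smad6 the ranges of the KO and WT libraries overlap.

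Among the ligands, Bmp2, which activates SMAD signalling through the type I receptors BMPR1A and BMPR1B, was the only tested BMP ligand of the list to fall. It was measured at 6.42, 4.70 and 5.65 CPM in WT replicates 1 to 3 and at 2.39, 2.23 and 1.48 CPM in KO replicates 1 to 3. All KO libraries lay below all WT libraries, with the lowest value in KO replicate 3. Mean levels were 5.59 ± 0.861 CPM in WT and 2.03 ± 0.487 CPM in KO (SD, n = 3), with a log2 fold change of -1.46 (SE 0.253, 95% interval -2.06 to -0.85, adjusted p = 0.00893 from edgeR). Bmp2 was thus a weakly expressed gene, with 99 to 135 counts per WT library and 31 to 50 per KO library. With each library left out in turn its adjusted p stayed between 0.00118 and 0.0474, and only without KO replicate 3 was it under the 0.01 of the study thresholds.

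Bmp4, a ligand known for its roles in mesoderm formation and in the self-renewal of mouse embryonic stem cells, rose by a smaller factor. Its levels were 24.7, 21.6 and 25.7 CPM in WT and 29.98, 34.0 and 28.8 CPM in KO. The genotypes did not overlap, with every KO library above the highest WT library. The means were 23.98 ± 2.12 and 30.9 ± 2.72 CPM (SD, n = 3), and the log2 fold change was 0.37 (SE 0.107, 95% interval 0.11 to 0.62, adjusted p = 0.0397 from edgeR). This call was a marginal one: leaving out any library other than KO replicate 3 took the adjusted p past the threshold, up to 0.127, and without KO replicate 3 it was 0.00552. It was lost too with scaling by library totals (adjusted p = 0.0636), with no filter (adjusted p = 0.0528) and with the replicate number as a block (adjusted p = 0.100). On the other strand 89 exonic bases of Bmp4 overlap another annotated gene, and whether the counting used strand was not stated.

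Bmp6, which is known in the liver as the ligand that drives hepcidin expression, had 10.6, 12.8 and 13.4 CPM in WT and 31.1, 28.3 and 15.7 CPM in KO. KO replicates 1 and 2 lay well above WT, whereas KO replicate 3 was close to the highest WT library. The fold over the WT mean was 2.54, 2.31 and 1.28 in KO replicates 1 to 3. The means were 12.3 ± 1.46 and 25.05 ± 8.24 CPM (SD, n = 3), with a log2 fold change of 1.03 (SE 0.258, 95% interval 0.42 to 1.65, adjusted p = 0.0256 from edgeR). The value depended on KO replicate 3, without which the log2 fold change was 1.28 and the adjusted p was 1.28e-05, and leaving out any other library gave adjusted p-values of 0.0576 to 0.0926. Bmp6 shares 224 exonic bases with Txndc5 on the other strand, and Txndc5 did not pass the test (log2 fold change -0.13, adjusted p = 0.189).

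The largest difference of the group was that of Grem1, which encodes a secreted cystine-knot protein that binds BMP2 and BMP4 in preference to other ligands and keeps them from their receptors. Grem1 was measured at 58.0, 49.1 and 48.4 CPM in WT and at 257, 362 and 1424 CPM in KO. Every KO library was well above every WT library, and KO replicate 3 was far above the other KO libraries, with folds over the WT mean of 4.95, 6.98 and 27.5 in KO replicates 1 to 3. The means were 51.8 ± 5.39 CPM and 681 ± 646 CPM (SD, n = 3), and the log2 fold change was 3.71 (SE 0.674, 95% interval 2.11 to 5.32, adjusted p = 0.00999 from edgeR). Grem1 ranked at place 37 by log2 fold change among the 13386 genes tested, and at place 9 of the 201 genes called higher by the study thresholds. Its direction did not rest on KO replicate 3: without it the log2 fold change was 2.58 and the adjusted p was 7.84e-07. The study call lay at its threshold and was lost with RLE factors, library totals, a CPM filter and without any library other than KO replicate 3, and leaving out WT replicate 2 or 3 gave adjusted p-values of 0.0528 and 0.0561.

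Promoter sequence is shown for the genes of the group whose window of 250 bases before the start held no annotated exon of that gene. Exons of other genes were not looked for in these windows. The promoter of Grem1, with the largest difference, can thus be read beside those of Bmp4, with a small one, and Smad6, with none detected. The windows are those of RefSeq on GRCm38.p6, each 5′ to 3′ on the strand of its gene, which for all 3 is the minus strand. They lie at chr2:113758649-113758898 for Grem1, at chr14:46390670-46390919 for Bmp4 and at chr9:64022060-64022309 for Smad6. Capitals mark GGCGCC, a GC-rich SMAD1 and SMAD5 binding sequence that is its own reverse complement, and GTCT or its reverse complement AGAC, the short SMAD binding element.
Grem1: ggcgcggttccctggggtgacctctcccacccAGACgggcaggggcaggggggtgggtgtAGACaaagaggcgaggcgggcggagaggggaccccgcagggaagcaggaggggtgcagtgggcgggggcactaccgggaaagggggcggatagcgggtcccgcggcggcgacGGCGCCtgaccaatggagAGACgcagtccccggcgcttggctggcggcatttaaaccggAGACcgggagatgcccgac
Bmp4: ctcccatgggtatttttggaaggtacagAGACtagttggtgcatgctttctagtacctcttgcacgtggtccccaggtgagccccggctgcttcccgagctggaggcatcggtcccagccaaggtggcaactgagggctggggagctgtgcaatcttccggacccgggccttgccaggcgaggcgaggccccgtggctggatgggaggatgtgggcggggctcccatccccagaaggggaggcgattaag
Smad6: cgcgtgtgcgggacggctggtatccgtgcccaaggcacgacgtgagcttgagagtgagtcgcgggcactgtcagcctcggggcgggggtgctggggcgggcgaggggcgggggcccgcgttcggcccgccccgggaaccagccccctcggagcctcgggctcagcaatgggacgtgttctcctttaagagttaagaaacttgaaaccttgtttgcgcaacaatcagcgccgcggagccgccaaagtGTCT
The Grem1 window held 1 GGCGCC, its first base 78 bases before the start, and 4 GTCT or AGAC matches, at 218, 190, 60 and 19 bases before the start. Bmp4 and Smad6 held no GGCGCC and 1 GTCT or AGAC each, at 222 and 4 bases. Promoters were found for 8 of the 10 genes, all but Bmp2 and Id1. GGCGCC was present in 4 of these 8 (Grem1, Bmpr2, Bmpr1a and Id2) and in 9.59% of 32851 promoters, while GTCT or AGAC was present in 6 of the 8 and in 82.9% of all promoters. The 8 windows had a GC content of 62.8% to 78.8%, against a median of 52.4% over all promoters, so these shares do not compare windows of equal base composition. A match is a description of the letters and no evidence of binding.

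Neither receptor passed the test. Bmpr1a, the type I receptor kinase for BMP2 and BMP4, was measured at 169, 181 and 162 CPM in WT and at 184, 191 and 171 CPM in KO. The libraries of the genotypes overlapped, and the difference did not pass the test (log2 fold change 0.093, 95% interval -0.089 to 0.27, adjusted p = 0.375 from edgeR). Both bounds of this interval are smaller in size than the changes of Bmp2 and Grem1. Bmpr2, the type II receptor kinase that phosphorylates the type I receptors, was measured at 176, 181 and 156 CPM in WT and at 199, 202 and 250 CPM in KO. All KO libraries were above all WT libraries, yet the difference missed the threshold (log2 fold change 0.34, SE 0.112, 95% interval 0.078 to 0.61, adjusted p = 0.0545). It passed with DESeq2 (adjusted p = 0.0230) and without KO replicate 3, the library with the highest level (log2 fold change 0.23, adjusted p = 0.0156). Bmpr1a shares 290 exonic bases with a gene on the other strand, and Bmpr2 shares none.

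**Figure D2:**
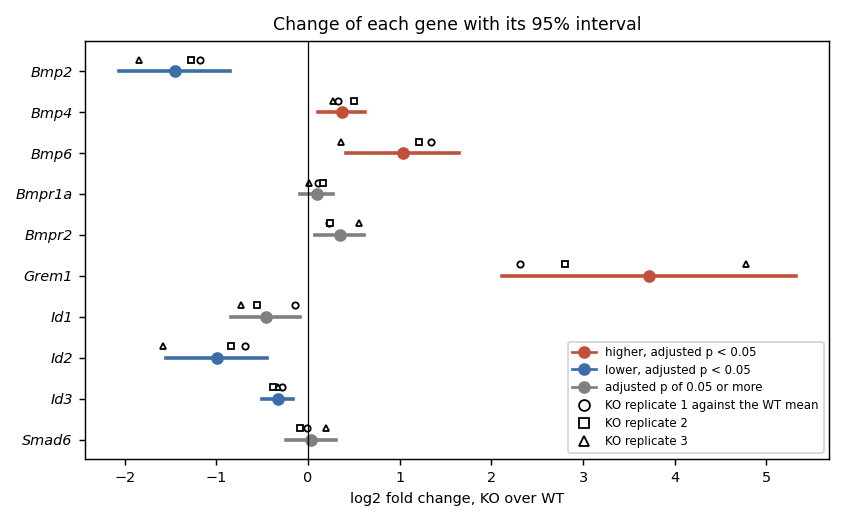
Log2 fold change of KO over WT for the 10 genes, ordered by role, with filled points at the estimate from edgeR, bars for the 95% interval and open symbols for each KO library against the WT mean. Colours mark genes that rose, fell or had an adjusted p of 0.05 or more. Grem1 (3.71) and Bmp2 (-1.46) lie at the extremes, and the intervals of Bmpr1a and Smad6 include 0.

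Of the Id genes, Id2 and Id3 fell and Id1 missed the threshold. Id4, named after its values were seen, had overlapping libraries, with 6.69 to 7.07 CPM in WT and 5.79 to 8.83 CPM in KO (log2 fold change 0.040, adjusted p = 0.882 from edgeR). Id2 was measured at 29.8, 38.6 and 35.2 CPM in WT and at 21.2, 19.2 and 11.4 CPM in KO. The genotypes did not overlap, and KO replicate 3 had the lowest level. The means were 34.5 ± 4.45 and 17.3 ± 5.15 CPM (SD, n = 3), with a log2 fold change of -0.999 (SE 0.232, 95% interval -1.55 to -0.45, adjusted p = 0.0204 from edgeR). Without KO replicate 3 it was -0.77 (adjusted p = 0.000386), and the call was lost without WT replicate 2 (adjusted p = 0.0787) or WT replicate 3 (adjusted p = 0.0758).

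Id3 was measured at 128, 118 and 132 CPM in WT and at 104, 96.6 and 100.3 CPM in KO, and its KO libraries were close together. The fold over the WT mean was 0.823, 0.766 and 0.795, so KO replicate 3 did not stand apart for this gene. The log2 fold change was -0.33 (SE 0.0723, 95% interval -0.50 to -0.16, adjusted p = 0.0168 from edgeR). The call was lost without WT replicate 1, WT replicate 3 or KO replicate 2, with adjusted p-values of 0.0699, 0.0746 and 0.0568.

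Id1, the member of the family most often used as a readout of BMP signalling, had 55.0, 61.4 and 64.8 CPM in WT and 54.4, 40.8 and 36.1 CPM in KO. KO replicate 1 was just below the lowest WT library, and the other KO libraries were clearly lower. The difference missed the threshold (log2 fold change -0.46, SE 0.158, 95% interval -0.84 to -0.088, adjusted p = 0.0624 from edgeR). It passed with DESeq2 (adjusted p = 0.0323), with edgeR's exact test (adjusted p = 0.0418), with scaling by library totals (adjusted p = 0.0470), without KO replicate 1 (adjusted p = 0.0164) and without KO replicate 3 (adjusted p = 0.0313). In the deposited FPKM values the genotypes overlapped for Id1, with 76.2 in KO replicate 1 and 73.7 in WT replicate 1.

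Smad6, which encodes an inhibitory SMAD that competes with the receptor-activated SMADs, did not pass the test. Its levels were 19.0, 16.7 and 16.7 CPM in WT and 17.3, 16.3 and 20.0 CPM in KO. The genotypes overlapped, and the log2 fold change was 0.032 (95% interval -0.24 to 0.30, adjusted p = 0.846), with a sign that turned under other settings.

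Levels were compared between genes only per length, with the deposited FPKM values. In WT cells the order of the mean FPKM was Id3 (141 ± 11.1, SD, n = 3), Id1 (85.4), Bmpr1a (37.3 ± 2.24), Id2 (36.1 ± 4.82), Bmpr2 (17.3), Bmp4 (12.9 ± 1.57), Grem1 (12.1 ± 1.33), Smad6 (7.54), Bmp6 (5.41) and Bmp2 (1.71). Bmpr1a and Id2, and Bmp4 and Grem1, were neighbours that differed by less than their SDs. In KO cells the mean FPKM of Grem1 was 156 ± 145 (SD, n = 3), from 60.2, 85.8 and 323 in replicates 1 to 3, and the order became Grem1, Id3 (114), Id1 (61.9), Bmpr1a (39.4), Bmpr2 (21.2), Id2 (17.4), Bmp4 (16.4), Bmp6 (11.1), Smad6 (8.02) and Bmp2 (0.634). In these FPKM values the place of Grem1 at the top rested on KO replicate 3, since in KO replicates 1 and 2 it was below Id3. Among 12633 genes with FPKM values Grem1 went by mean FPKM from place 6183 in WT to place 502 in KO. The KO mean was raised by KO replicate 3, so place 502 does not describe KO replicates 1 and 2. For comparison, the KO mean of Id1 (61.9) was at place 1387. The levels of the Id genes depended on the way of computing them. From Cufflinks the WT mean FPKM was 141 for Id3, 85.4 for Id1 and 36.1 for Id2. When counts were divided by the gene length of the count table, the WT means were 101, 53.1 and 15.3.

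Summed within a library, the FPKM of the ligands Bmp2, Bmp4 and Bmp6 was 19.3, 18.4 and 22.2 in WT and 30.2, 30.3 and 23.9 in KO. The sum of these 3 ligands was thus higher in each KO library than in any WT library, although Bmp2 was lower, and the other ligands were not summed. Bmp4 made up 64.3% of the sum in WT and 58.7% in KO, Bmp6 made up 27.1% and 39.0%, and Bmp2 made up 8.60% and 2.23%. The FPKM of Bmp6 was 3.23 times that of Bmp2 on average in WT and 17.4 times in KO.

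The balance of Grem1 mRNA to that of these 3 ligands shifted in every knockout library. The ratio of Grem1 FPKM to the ligand sum was 0.709, 0.621 and 0.509 in WT and 1.99, 2.83 and 13.5 in KO, so that the mRNA of Grem1 was below that of the ligands in each WT library and above it in each KO library. The ratio leaves out the other antagonists, of which Fstl1, named here after its values were seen, was far more abundant, with mean FPKM of 688 in WT and 797 in KO and no call (log2 fold change 0.20, adjusted p = 0.157 from edgeR). The summed FPKM of Id1, Id2 and Id3 was 244, 255 and 290 in WT and 212, 182 and 186 in KO (means 263 ± 23.8 and 193 ± 16.5, SD, n = 3). Id2 made up 13.7% of this sum in WT and 8.98% in KO. These sums and ratios are descriptions of mRNA levels, without a test, and they say nothing of protein.

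**Figure D3:**
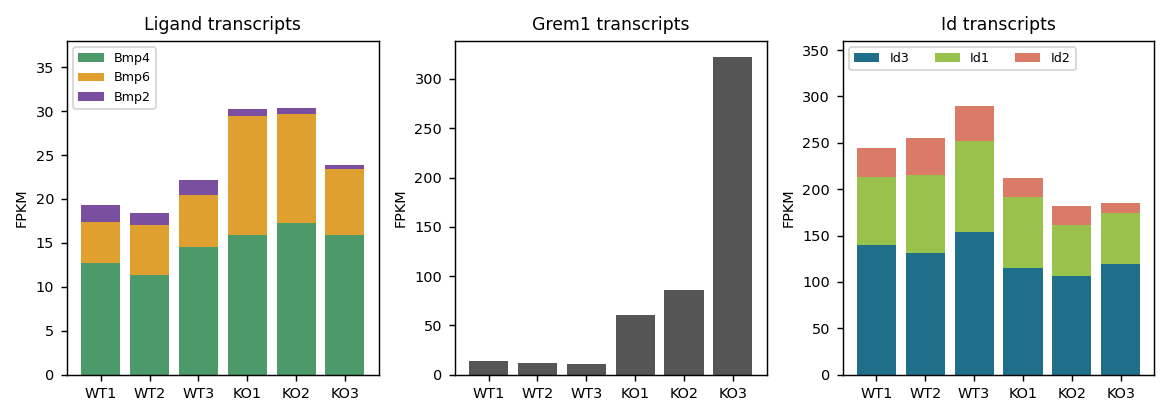
Deposited FPKM (y axis) in each of the 6 libraries (x axis), as bars from 0, stacked for the ligands Bmp4, Bmp6 and Bmp2 at left and for Id3, Id1 and Id2 at right, with Grem1 in the middle. The y axes differ: the ligand sum runs from 18.4 to 30.3, Grem1 reaches 323 in KO replicate 3, and the Id sum lies between 182 and 212 in KO and between 244 and 290 in WT.

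The rest of the pathway was described with a list of 48 further names, of which 44 had a row and 43 were tested. Of these 7 fell and 8 rose, with a median log2 fold change of 0.11, and 1 gene in each direction, Sost and Fst, was called by the study thresholds. These shares are near those of all genes, of which 16.6% fell and 16.4% rose, and 2.08% and 1.50% were called lower and higher by the study thresholds. Counted by role with the members included, 1 of 12 ligands fell and 4 rose, 2 of 10 receptors and co-receptors fell and 1 rose, 2 of 15 antagonists fell and 4 rose, and 1 of 8 SMADs and SMAD regulators fell and 2 rose, to be read beside the same 16.6% and 16.4%. Of 12 target genes 4 fell and 1, Smad7, which is also counted among the SMADs, rose, with a median log2 fold change of -0.43, and 7 had KO libraries below all WT libraries while 1 had them above, beside 28.2% and 26.6% of all genes.

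Besides Bmp4 and Bmp6, the ligands that rose were Bmp8a and Bmp15, both of low abundance. Bmp8a (log2 fold change 2.29, adjusted p = 0.0114) was measured at 0.332 to 0.998 CPM in WT and 2.90 to 4.81 CPM in KO, and its reads can be shared with the close paralog Bmp8b. Bmp15 (2.57, adjusted p = 0.0279), a ligand of the oocyte, stayed under 2 CPM in every library.

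Receptors and co-receptors moved in both directions. Acvr2b, a type II receptor shared by activins and BMPs, fell (log2 fold change -0.65, SE 0.118, adjusted p = 0.0102 from edgeR), from 16.7 to 21.2 CPM in WT to 11.7 to 12.8 CPM in KO. Rgma and Rgmb encode GPI-anchored BMP co-receptors of the same family, and they moved in opposite directions. Rgma had 51.1, 49.7 and 49.97 CPM in WT and 28.4, 30.9 and 25.6 CPM in KO, a log2 fold change of -0.83 (SE 0.0887, adjusted p = 0.00321 from edgeR). Rgmb rose from 29.2 to 30.7 CPM in WT to 37.1 to 52.2 CPM in KO (log2 fold change 0.53, adjusted p = 0.0256).

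Grem1 was not the only antagonist to rise. Fst, which encodes follistatin, a binding protein of activins that also binds BMPs, was measured at 41.9, 37.5 and 35.0 CPM in WT and at 86.8, 68.8 and 126 CPM in KO. The genotypes did not overlap, and KO replicate 3 was again the highest library (log2 fold change 1.30, SE 0.218, adjusted p = 0.00817 from edgeR). Bmper, a secreted BMP-binding protein, rose from 11.9 to 17.1 CPM in WT to 23.6 to 38.1 CPM in KO (log2 fold change 0.96, adjusted p = 0.0224). The follistatin-related gene Fstl3 also rose (log2 fold change 1.24, adjusted p = 0.0176 from edgeR). However, 1157 of its exonic bases overlap Prss57 on the other strand, which rose too (1.51, adjusted p = 0.0156 from edgeR). The library kit was a stranded one, but the strand setting of the counting was not stated. The counts of Fstl3 and Prss57 thus cannot be told apart.

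Sost and Chrdl1 were the antagonists that fell. Sost, which encodes sclerostin, an inhibitor known above all for WNT signalling in bone, had 5.32, 9.68 and 7.92 CPM in WT and 0.811, 0.285 and 0 CPM in KO. It was close to undetected in the knockout, with a fitted log2 fold change of -4.37 (SE 0.774, adjusted p = 0.00946 from edgeR). Chrdl1, a chordin-like ligand-binding protein, fell to 0.857 to 4.04 CPM in KO from 7.07 to 8.61 CPM in WT (log2 fold change -1.53, adjusted p = 0.0493).

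Of the 8 SMADs and SMAD regulators, Smad7 and Smurf2 rose and Smad5 fell, while Smad6, Smurf1 (adjusted p = 0.0883), Smad1 (adjusted p = 0.607), Smad9 (adjusted p = 0.0519) and Smad4 did not pass the test. Smad7, which encodes an inhibitory SMAD and is itself a target of TGF-β and BMP signals, was measured at 27.95, 26.8 and 27.4 CPM in WT and at 44.3, 37.5 and 46.5 CPM in KO. The genotypes did not overlap (log2 fold change 0.64, SE 0.0990, adjusted p = 0.00670 from edgeR), unlike those of its paralog Smad6, and whether both genes differed in response was not tested. Smurf2, an E3 ligase that acts on receptors and SMADs with SMAD7, rose from 73.6 to 78.0 CPM in WT to 98.8 to 108 CPM in KO (log2 fold change 0.46, adjusted p = 0.00657). Smad5, which carries the BMP signal to the nucleus, fell from 164 to 174 CPM in WT to 122.7 to 143 CPM in KO (log2 fold change -0.32, adjusted p = 0.0263).

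Among the target genes, Hey1 and Atoh8, both basic helix-loop-helix factors that BMP signals induce in endothelial and other cells, fell along with Id2 and Id3. Hey1 was measured at 6.09, 5.36 and 6.83 CPM in WT and at 2.86, 1.71 and 1.05 CPM in KO (log2 fold change -1.70, SE 0.359, adjusted p = 0.0156 from edgeR). Atoh8 was measured at 9.94, 9.21 and 10.7 CPM in WT and at 5.20, 3.75 and 7.24 CPM in KO (log2 fold change -0.88, SE 0.243, adjusted p = 0.0338). No library overlapped between genotypes for either gene. The call of Hey1 was lost without any 1 WT library (adjusted p = 0.0525 to 0.0687 from edgeR). That of Atoh8 was lost without any library other than KO replicate 3 (adjusted p = 0.0585 to 0.115 from edgeR). Of the pathway genes named here, the adjusted p of Bmp2, Rgma, Fst, Sost, Smad7 and Smurf2 stayed under 0.05 with each library left out in turn.

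**Figure D4:**
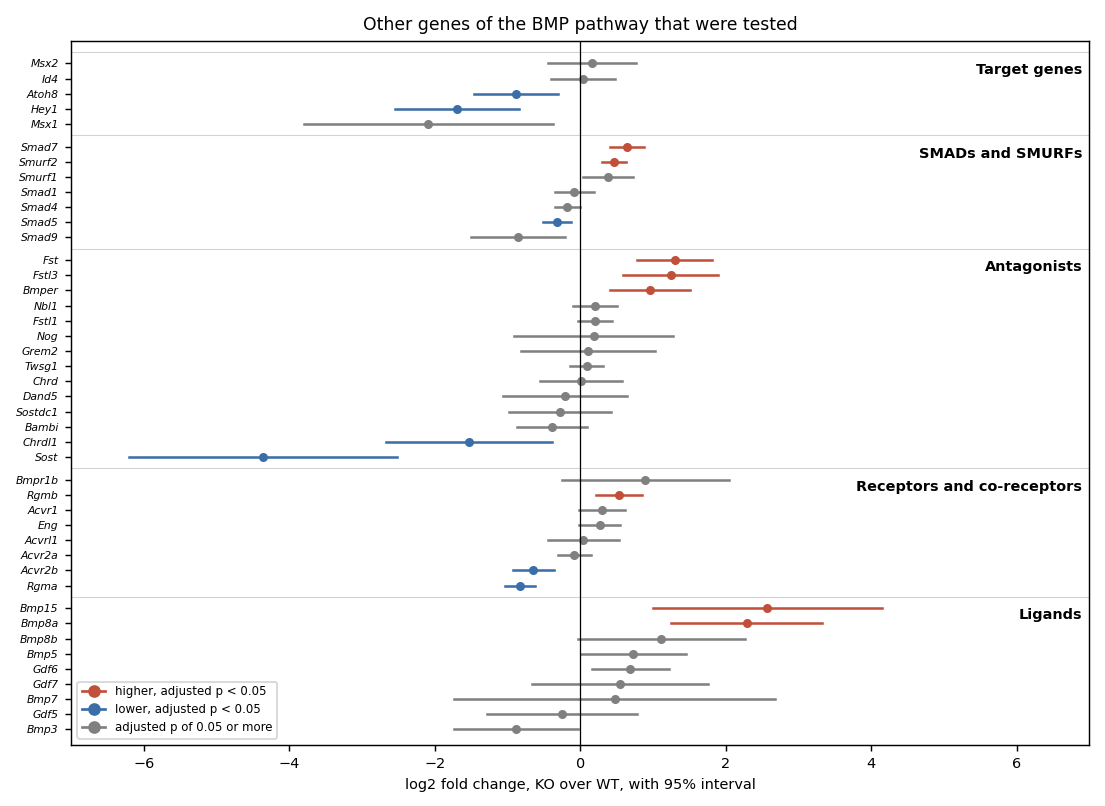
Log2 fold change of KO over WT (x axis) for the 43 other BMP pathway genes tested, grouped by role, with points at the estimate from edgeR and bars for the 95% interval. Red marks the 8 genes that rose and blue the 7 that fell, and Sost (-4.37) lies farthest from 0.

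The partners of the Id proteins and the epithelial genes of MET were read beside the pathway. Of the 3 E protein genes, which encode the factors that Id proteins sequester, 2 fell, beside 16.6% of all genes. These were Tcf3 (log2 fold change -0.91, adjusted p = 0.00960 from edgeR) and Tcf4 (-0.63, adjusted p = 0.0114 from edgeR). Tcf12 had overlapping libraries and did not pass the test (-0.046, adjusted p = 0.807 from edgeR). Of 8 epithelial genes 5 passed the filter, all 5 with a negative log2 fold change and a median of -1.30, and 1 of the 5, Cldn3, which encodes a tight junction claudin, fell (-2.16, adjusted p = 0.00614), beside 16.6% of all genes. Cdh1, which encodes E-cadherin, was measured at 9.98, 9.83 and 10.01 CPM in WT and at 13.4, 9.40 and 1.81 CPM in KO (-0.28, adjusted p = 0.740), with KO replicate 1 above every WT library and KO replicate 3 far below. Cldn4 and Ocln, under the filter, had 3 and 1 to 7 counts per WT library and 5 to 12 and 5 to 11 counts per KO library. These genes were named after their values were seen. The summed level of the epithelial genes was 46.4, 44.3 and 45.8 CPM in WT and 34.9, 24.98 and 4.10 CPM in KO, lowest in KO replicate 3.

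The genes with patterns most like those of Id1 and Bmp4 over the 6 libraries were found by the root mean square distance between log2 CPM values centred on each gene's own mean. For Id1 these were Rcc1 (0.036), Dusp9 (0.053) and Taf1b (0.065). For Bmp4 they were Bcas3 (0.035), Calhm2 (0.037) and Itga5 (0.045).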

How the data were processed

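RNA-seq was performed on 3 WT and 3 KO samples. Per the labels, reads were aligned to GRCm38 with HISAT2 2.1.0, and FPKM values came from Cufflinks 2.1.1. The authors deposited unnormalized whole-number counts for each gene and, for 12633 genes, FPKM values. The paper's methods name a stranded library kit, but the counting program and its use of strand are not given in the sources used here. The authors' own log2 fold changes and FDR values, which stand in the FPKM table, were not used.

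Counts were analysed with R 4.3.3 and edgeR 4.0.16. After TMM scaling and the default filterByExpr filter, 13386 genes entered the quasi-likelihood test of genotype, with no covariate and with Benjamini-Hochberg adjustment. Log2 CPM values used a pseudocount of 2. Standard errors were obtained from the fold change and its F statistic. Intervals are 95% intervals. The test was also run on simulated counts. These held no outlying library such as KO replicate 3, so that run says nothing of calls that depend on it.

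The alternatives were RLE factors, library totals, no filter, a CPM filter, DESeq2 1.42.0, edgeR's exact test, the replicate number as a block, no FPKM limit and each library left out. The genes to be named by plan were all 10 members, Rnf20, at most 15 other pathway genes with an adjusted p under 0.05, by smallest p, and for Id1 and Bmp4 the 3 genes of most similar pattern. The E protein, epithelial and cell type lists were planned as counts and ranges, and the genes named from them were picked after their values were seen. Id4, Fstl1, Smad1, Smad4, Smad9 and Smurf1 were outside this plan too. Members and gene lists were chosen with earlier results of these data known. Exons and overlaps came from GENCODE M21 and promoters from RefSeq. Listed genes without a row (Bmp10, Gdf2, Hjv, Cer1, Cldn7 and Myf5) were not analysed here.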

Additional observations from a re-analysis of the deposited data

How the results depend on the processing

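Leaving out each library in turn changed the counts of calls. Genes called by the study thresholds ranged from 1 to 490 lower and from 0 to 295 higher, against 279 and 201 with all libraries, and genes with an adjusted p under 0.05 from 702 to 3280 lower and from 694 to 3230 higher, against 2218 and 2195. The highest of these counts came without KO replicate 3, and with any other library left out at most 61 genes were called in a direction by the study thresholds. At the lowest, without WT replicate 3, edgeR still gave 2384 genes lower and 2356 higher at an unadjusted p under 0.05. Of the 10 members 0 to 1 were called lower and 0 to 2 higher by the study thresholds, and 1 to 4 fell and 0 to 4 rose at an adjusted p under 0.05. Of the other pathway genes 2 to 12 fell and 3 to 12 rose. Leaving out a library reduces the samples of a genotype to 2, so fewer calls can come from that alone. DESeq2 called 565 genes lower and 417 higher by the study thresholds, edgeR's exact test 566 and 409, and each called 2 members higher. The members called higher fell to 0 with RLE factors, library totals and the CPM filter, where the adjusted p of Grem1 lay just past 0.01. With library totals 2684 genes fell and 1750 rose, a split nearer to lower calls. For Smad6 the sign turned with library totals (-0.028), without WT replicate 2 (-0.0015), without WT replicate 3 (-0.0017) and without KO replicate 3 (-0.053), and the values without each library in turn ran from -0.053 to 0.097. Of 130 values of members under alternatives, 98 kept their direction and side of the threshold.

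Deviations of WT and KO samples with the same replicate number correlated at -0.066, 0.037 and 0.011, and those with unlike numbers at -0.069 to 0.072. KO replicate 3 lay far from the other KO libraries and so weighs on the deviations of all KO samples. These values therefore cannot decide whether the replicate numbers paired the samples. With the replicate number as a block, 0 genes in either direction and 0 members were called by the study thresholds. At an unadjusted p under 0.05 edgeR gave 2858 genes lower and 2694 higher, and at an adjusted p under 0.05 1490 fell and 1385 rose. Of the members 3, Bmp2, Id2 and Id3, fell and 1, Grem1, rose under the block. Bmp4 (adjusted p = 0.100 from edgeR) and Bmp6 (adjusted p = 0.0623) lost their calls there.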
